A study of Mus musculus with 8 samples.

Results

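Il1rl1 encodes ST2, the receptor through which mast cells answer the alarm cytokine IL-33. Its cytosines were read here in the polyadenylated RNA of mast cells that were grown from bone marrow and lack Tet2. The members are every position of the deposited table that lies within the gene span of Il1rl1 on chromosome 1 of GRCm38, from 40404864 to 40465418. There were 445 such sites among 8492 in the table, or 5.24%. They were chosen by position alone. The table calls its sites specific to the Tet2-deficient group; the sources used here do not give the rule behind that choice.

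The study grew mast cells from the femoral marrow of C57BL/6 mice, either wild type or Tet2-/-, in medium with IL-3 and SCF, and kept cultures in which nearly all cells carried FcεRI and c-Kit. The labels describe 8 libraries, 4 of each genotype, made as 2 biological replicates that were each run as 2 technical replicates. Only the 4 Tet2-/- libraries have levels in the table, so genotypes are not compared. All cells described here share the Tet2-/- genotype and the IL-3 and SCF culture; the sources used here do not give the sex and age of the mice or how the Tet2 allele was made. Whether biological replicates came from separate mice is not stated either, so their spread may in part be technical.

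Bisulfite turns unmodified cytosine into uracil, while 5-methylcytosine is read as cytosine, and the methylation level is the percentage of reads in which a position remained cytosine. Cytosine that escaped conversion counts in that percentage as well. TET enzymes such as Tet2 oxidise 5-methylcytosine. The full-length ST2 protein sits in the membrane, pairs with the IL-1 receptor accessory protein once IL-33 is bound, and signals through MyD88, IRAK kinases and TRAF6; a shorter secreted form lacks the membrane anchor and binds IL-33 as a decoy. Mast cells are rich in ST2 and release cytokines in response to IL-33.

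Every listed Il1rl1 site fell within a single tract of 5351 bases, from 40452518 to 40457868, which is 8.84% of the gene span. The tract began 47654 bases into the span and ended 7550 bases before its end. RefSeq places Il1rl1 on the plus strand, and its promoter table gives 2 transcript starts, at 40429570 and 40439629. The first listed site lay 22948 bases past the former and 12889 bases past the latter, and the promoter windows around both starts held 0 listed sites. Both starts lie past the beginning of the gene span, so the promoter table need not hold every start. No other gene span of the annotation covered the tract. Il18r1, which encodes a subunit of the IL-18 receptor, begins 7684 bases after the last site. The nearest listed site outside Il1rl1 was 6030426 bases away. The table gives no strand and no base, and exons, introns and genome sequence were not used here, so a site need not lie in mature mRNA.

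When all sites of the table up to 500 bases apart were joined, they formed 259 regions, and the Il1rl1 tract had both the most sites and the greatest length of them. The region next in number of sites, on chromosome 6, held 321, and the longest of the others ran over 3788 bases. The other regions had a median of 13.5 sites over 133 bases. Regions of the whole table were formed at 500 bases only. With sites up to 200 bases apart joined, the Il1rl1 tract itself formed 5 pieces, so its first place may not hold at shorter distances. Of 21 genes with at least 100 listed sites, 1 had all of them in a single region, and that gene was Il1rl1. This rests on the joining distance, since some of these genes had their sites over fewer bases in all. The sites of Zfand6 ran over 2224 bases, of Olfr1033 over 2519 and of Anapc10 over 3175. Those of Ulbp1 ran over 3511 bases, of Cyp4a12b over 3891 and of Zfp369 over 4072, and each of these genes had 2 to 4 regions.

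Levels of the Il1rl1 sites were moderate on average and uneven along the tract. In all that follows, library values are given in the order biological replicate 1 with its technical replicates 1 and 2, then biological replicate 2 with its technical replicates 1 and 2. The mean over the 445 sites was 42.3%, 38.2%, 36.0% and 39.4%. The mean of the biological replicates was 39.0% ± 1.81 (SD, n = 2). Biological replicate 1 stood at 40.3% and replicate 2 at 37.7%, a gap of 2.56 points, while technical replicates differed by 4.14 and 3.37 points, so the biological replicates overlapped. The libraries' medians were 33.7%, 31.8%, 28.6% and 32.4%, all below their means. With 2 replicates against 2, the smallest p that an exact two-sided permutation test of libraries allows is 0.333, and no such test is given.

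Single sites ran from a mean of 13.1% to 94.0%, with a median of 31.5% and the middle 50% of them between 23.6% and 44.6%. Between 20% and 40% lay 260 sites (58.4%), and 77 sites stood at 60% or more. The corresponding shares of all listed sites are not given, so these counts only describe Il1rl1. At 50% or more in every library were 74 sites (16.6%), against 33.6% of all listed sites. Under 20% in every library were 9 sites (2.02%), against 2.45% of all listed sites. At 90% or more in every library were 0 of the 445 Il1rl1 sites, while the table held 206 such sites among 8492. The lowest level in the table was 10%, so sites below it are not listed and the averages describe listed sites only.

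The highest site, at 40457620, read 92.9%, 83.3%, 100% and 100%, with a mean of 94.0% ± 8.42 (SD, n = 2). The lowest, at 40453250, read 10.4%, 11.9%, 15.5% and 14.6%, with a mean of 13.1% ± 2.77 (SD, n = 2). As the extremes of 445 sites, they mark the range of levels and nothing further. The site with the widest range, at 40457309, read 90.9%, 22.2%, 40% and 52.9%, and there the highest and the lowest library were technical replicates of each other. The site with the narrowest range, at 40457043, read 22.7%, 22.9%, 23.0% and 23.8%.

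**Figure D1:**
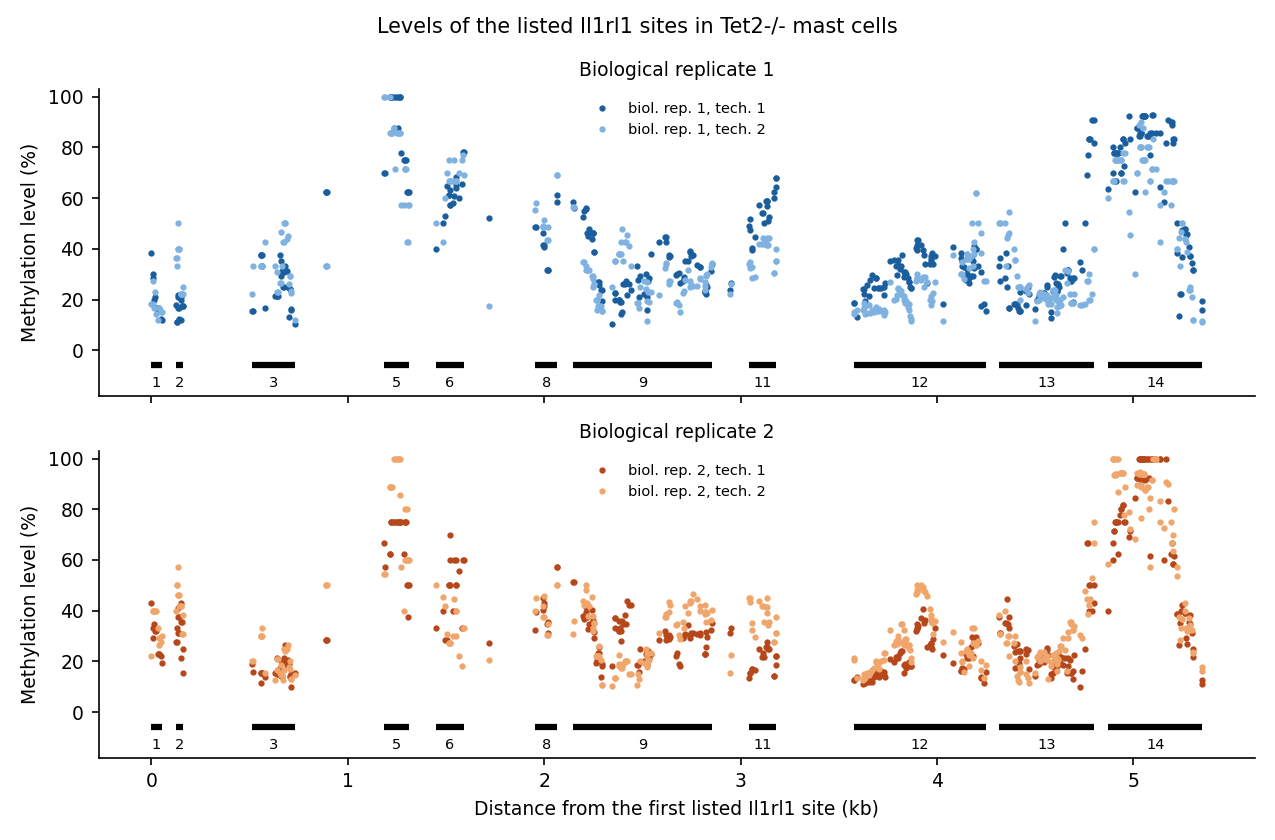
Methylation level in percent of each of the 445 Il1rl1 sites (vertical axis) against distance in kb from the first listed site (horizontal axis), with the libraries of biological replicate 1 above and those of replicate 2 below. Points are sites, colours are technical replicates and the numbered black bars are stretches of 10 or more sites; stretches 5 and 14 stand high in both panels, with a long low part between them.

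Sites up to 50 bases apart were joined into stretches, numbered along the plus strand. This gave 14 stretches that covered 3184 bases with 14.0 sites per 100 bases. Of these, 11 had at least 10 sites and together held 439 of the 445. Their mean levels ran from 24.3% in stretch 3 to 76.6% in stretch 5, a ratio of 3.16. Membership of a stretch accounted for 70.0% of the variance of the site means, a description of these sites and not a test.

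The tract opened with 3 low stretches. Stretch 1, with 11 sites from 40452518 to 40452572, read 20.7%, 17.5%, 28.6% and 33.6%, a mean of 25.1% ± 8.49 (SD, n = 2). Both libraries of biological replicate 2 were above both of replicate 1, at 10 of its 11 sites as well. Stretch 2, with 14 sites from 40452643 to 40452682, read 16.7%, 32.3%, 31.7% and 43.0% (mean 30.9% ± 9.10, SD, n = 2). Here the replicates overlapped, and the technical replicates of replicate 1 were 15.6 points apart. Stretch 3, with 29 sites from 40453030 to 40453250, read 26.0%, 33.6%, 16.9% and 20.5% (mean 24.3% ± 7.87, SD, n = 2). Its order was the opposite of that in stretch 1, with biological replicate 1 above replicate 2 at 23 sites and below it at 1.

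High levels followed about 1200 bases into the tract. Stretch 5, with 23 sites from 40453705 to 40453831, was the highest of all and read 84.5%, 76.5%, 67.3% and 78.1%, a mean of 76.6% ± 5.48 (SD, n = 2). In every library it stood above every library of stretches 1 to 3, and 20 of its 23 sites were at 50% or more in all 4 libraries. Stretch 6, with 18 sites from 40453970 to 40454108, read 61.4%, 66.5%, 48.9% and 33.1%, a mean of 52.5% ± 16.3 (SD, n = 2). This was the widest gap between biological replicates among the stretches, 23.0 points, against technical gaps of 5.11 and 15.8 points. Stretch 8, with 11 sites from 40454474 to 40454583, read 43.8%, 53.1%, 41.6% and 40.3% (mean 44.7% ± 5.31, SD, n = 2), and replicate 1 was again above replicate 2.

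The central part of the tract was low and held most of the sites. From 40454666 to 40457319, 260 sites had mean levels of 33.1%, 27.6%, 25.1% and 28.7%, together 28.6% ± 2.43 (SD, n = 2), and 0 of them reached 50% in every library. This division into parts was made after the values were seen. Stretch 9, with 84 sites from 40454666 to 40455374, read 31.5%, 28.4%, 29.5% and 29.5%, a mean of 29.7% ± 0.349 (SD, n = 2). Its library means were the closest among the stretches, but the libraries differed more inside it. Its 11 sites from 40454863 to 40454912 read 18.5%, 37.4%, 32.3% and 16.6%. Its 11 sites from 40455227 to 40455314 read 34.4%, 26.4%, 30.8% and 41.2%. Stretch 11, with 21 sites from 40455563 to 40455700, agreed poorly: it read 54.6%, 37.6%, 20.6% and 37.4%, a mean of 37.6% ± 12.1 (SD, n = 2). Technical replicates were 17.0 and 16.9 points apart there, about as far as the biological replicates at 17.1 points.

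Stretch 12, with 84 sites from 40456096 to 40456768, read 30.4%, 25.3%, 21.2% and 27.2% (mean 26.0% ± 2.60, SD, n = 2). Levels inside it were not flat. Its 12 sites between 40456141 and 40456209 read 24.4%, 16.2%, 12.7% and 15.9%. Its 13 sites between 40456419 and 40456510 read 36.5%, 24.1%, 31.0% and 41.7%, so that every library was higher at the latter place than at the former. Stretch 13, with 69 sites from 40456834 to 40457319, read 31.9%, 26.4%, 25.6% and 27.2% (mean 27.8% ± 1.92, SD, n = 2). Its first 59 sites had a mean of 24.3% ± 1.81 and its last 10 a mean of 48.4% ± 2.60 (SD, n = 2 for both). Those last 10 sites read 74.2%, 26.3%, 44.7% and 48.3%, so the highest and the lowest of them were the technical replicates of biological replicate 1.

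The tract closed with a second high part. Stretch 14, with 75 sites from 40457391 to 40457868, read 70.2%, 60.7%, 70.3% and 73.4%, a mean of 68.6% ± 4.50 (SD, n = 2). It held 52 of the 74 sites that were at 50% or more in every library; the rest were the 20 of stretch 5 and 2 of stretch 8. Each of its libraries stood above every library of stretches 9, 11, 12 and 13. Within it the level fell between neighbouring sites 17 bases apart. The 56 sites up to 40457722 read 82.1%, 70.4%, 83.3% and 86.7%, a mean of 80.6% ± 6.16 (SD, n = 2). The 19 sites from 40457739 on read 35.0%, 32.3%, 31.9% and 34.2%, a mean of 33.3% ± 0.413 (SD, n = 2). The last 5 sites before the fall read 85.5%, 66.7%, 62.3% and 69.4%, and the first 5 after it 29.2%, 40.9%, 35.8% and 42.1%. The mean of the 56 sites exceeded that of the 19 by 38.1 to 52.5 points in the single libraries. This is a difference between whole parts and not the size of the fall itself. The place of this step was found as the largest drop between neighbouring groups of 5 sites, so its size is a description.

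**Figure D2:**
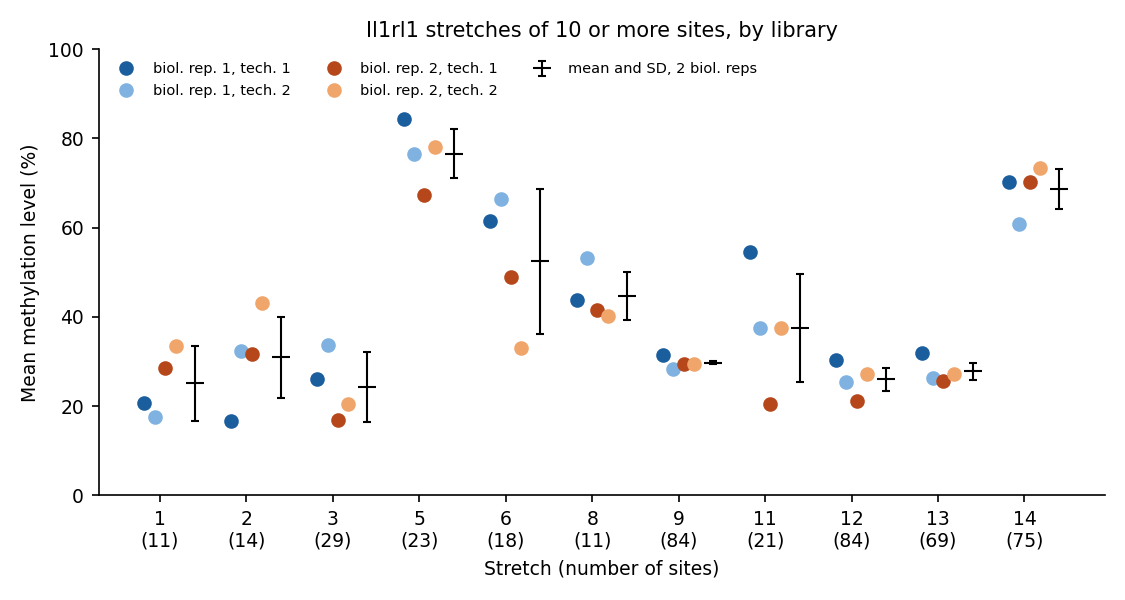
Mean methylation level in percent (vertical axis) of each Il1rl1 stretch of 10 or more sites (horizontal axis, number of sites in parentheses). Coloured points are the 4 libraries and black ticks with bars are the mean and SD of 2 biological replicates; stretches 5 and 14 lie above 60% in every library, while stretches 9, 12 and 13 lie between 21.2% and 31.9%.

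Agreement between replicates differed from stretch to stretch. The range over the 4 libraries had a median of 16.0 points over the 11 stretches and ran from 3.08 points in stretch 9 to 34.1 points in stretch 11. The narrowest ranges, 3.08, 6.29 and 9.20 points, were those of stretches 9, 13 and 12, which were also the longest, at 709, 486 and 673 bases. Length was not held equal in this comparison. In 6 of the 11 stretches the biological replicates did not overlap, that is, both libraries of either exceeded both libraries of the other. Over the whole table this held for 86 of 248 stretches of 10 or more sites (34.7%). The replicates were barely apart in stretches 11 and 14, with 0.149 and 0.085 points between their nearest libraries, and stood 2.17 to 12.6 points apart in stretches 1, 3, 6 and 8. In stretches 3, 6, 8 and 11 replicate 1 was the higher, and in stretches 1 and 14 it was replicate 2. At the level of sites, 157 of 445 (35.3%) were separated in this way, against 30.4% of all listed sites. Replicate 1 was the higher at 112 of them (25.2%, against 14.7% of all listed sites) and replicate 2 at 45 (10.1%, against 15.7%). Neighbouring sites move together, so these sites are not independent observations. With the column names read the other way, the second number as the biological replicate, 72 sites (16.2%) were separated, against 26.3% of all listed sites.

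Levels of library pairs correlated across the 445 sites at 0.750 to 0.870 (Pearson's r); these values are across sites of shared libraries and tract and not across independent replicates. The mean difference per site was 10.8 points within technical pairs and 11.1 points within biological pairs. Over all other listed sites both kinds of pair differed by 13.6 points. For the 11 stretch means it was 7.46 points within technical pairs and 9.83 points within biological pairs.

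Most sites lay close to the next, while their density within stretches was lower than in most other listed genes. Within stretches Il1rl1 had 14.0 sites per 100 bases, 50th of 53 genes, against a median of 17.7. Shares of short gaps over all listed sites are not given. The gap from a site to the next had a median of 4 bases and was 10 bases or less in 341 of 444 cases (76.8%). In 94 cases (21.2%) a listed position directly followed another, in 66 runs of 2 positions, 11 runs of 3 and 2 runs of 4. The runs of 4 lay from 40454784 to 40454787, at 22.0% ± 0.978, and from 40456702 to 40456705, at 31.7% ± 6.93 (SD, n = 2 for both). No sequence of the tract was used here, so the bases of these runs are not given. Of the 445 sites, 26 (5.84%) had no other listed site within 10 bases, against 6.34% of the other listed sites. These 26 had a mean level of 32.4% ± 3.37, and the 419 clustered sites 39.4% ± 1.72 (SD, n = 2 for both).

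Close sites also deviated together. After the mean of each site and the mean of each library were removed, deviations of Il1rl1 sites 1 to 10 bases apart correlated at 0.843 over 671 pairs. The value was 0.614 at 11 to 50 bases (2178 pairs), 0.276 at 51 to 150 bases (4076 pairs) and -0.0088 at 151 to 300 bases (5578 pairs). For all other listed sites the corresponding values were 0.755, 0.502, 0.249 and 0.0384. The pairs share libraries, may share reads and are not independent, so these values are descriptions.

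**Figure D3:**
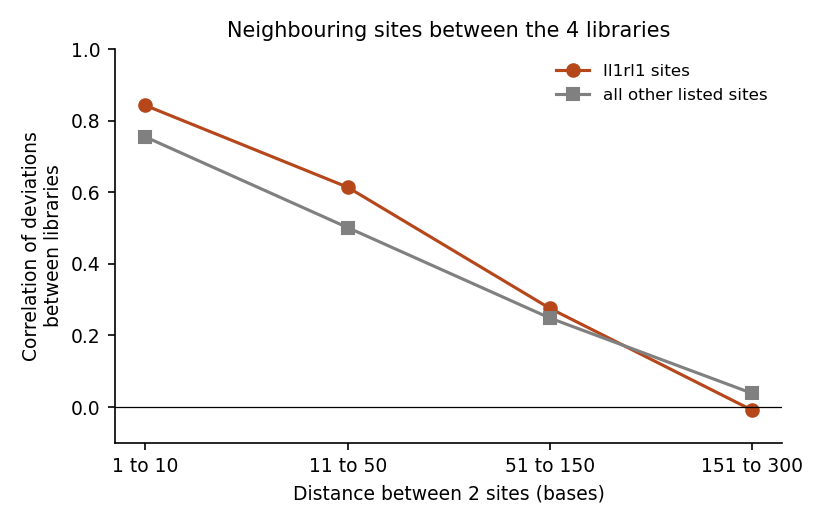
Correlation between the 4 libraries of the deviations of 2 sites (vertical axis) in bins of their distance in bases (horizontal axis), for the Il1rl1 sites and for all other listed sites. Il1rl1 falls from 0.843 at 1 to 10 bases to near 0 at 151 to 300 bases.

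Set beside other genes, Il1rl1 combined a level in the lower part of the order with a wide spread between its sites. Its mean of 39.0% was the 34th highest of 53 genes with at least 10 listed sites, whose other 52 members had a median of 48.3%. The SD between its site means was 21.4 points, the 4th highest of the 53, against a median of 13.3 points. Within stretches it had 14.0 sites per 100 bases, 50th of 53, against a median of 17.7. The range of a site over the 4 libraries averaged 20.1 points, 40th of 53, against a median of 24.6. These are positions among genes that were not tested.

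The 3 genes nearest to Il1rl1 in number of sites spread them over far longer distances and had higher levels. Pde1c, a cyclic nucleotide phosphodiesterase, had 507 sites over 174306 bases at 68.7% ± 0.187 (SD, n = 2). Inpp4b, a phosphoinositide phosphatase, had 508 sites over 526830 bases at 51.7% ± 0.844 (SD, n = 2). Igh, the locus of immunoglobulin heavy chains, had 559 sites over 178977 bases at 65.5% ± 1.02 (SD, n = 2). In each of them every library lay above every library of Il1rl1. Their sites differed among themselves about as much as those of Il1rl1, with SDs between site means of 20.2 points in Pde1c, 20.7 in Inpp4b and 21.3 in Igh. The long noncoding RNA 4933406I18Rik, named after its values were seen, had a like pair of values, with a mean level of 41.2% and an SD between its 198 sites of 21.6 points.

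The 3 genes nearest in level had far fewer sites. Dgkd, a diacylglycerol kinase, had 29 sites at 40.4% ± 3.43, Ccdc82 had 30 sites at 40.4% ± 2.43, and Acer3, a ceramidase, had 37 sites at 37.5% ± 8.38 (SD, n = 2 for each). All 3 lay within their own SD of Il1rl1. The site means of these smaller genes differed less, with SDs between sites of 16.6, 14.9 and 9.10 points.

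**Figure D4:**
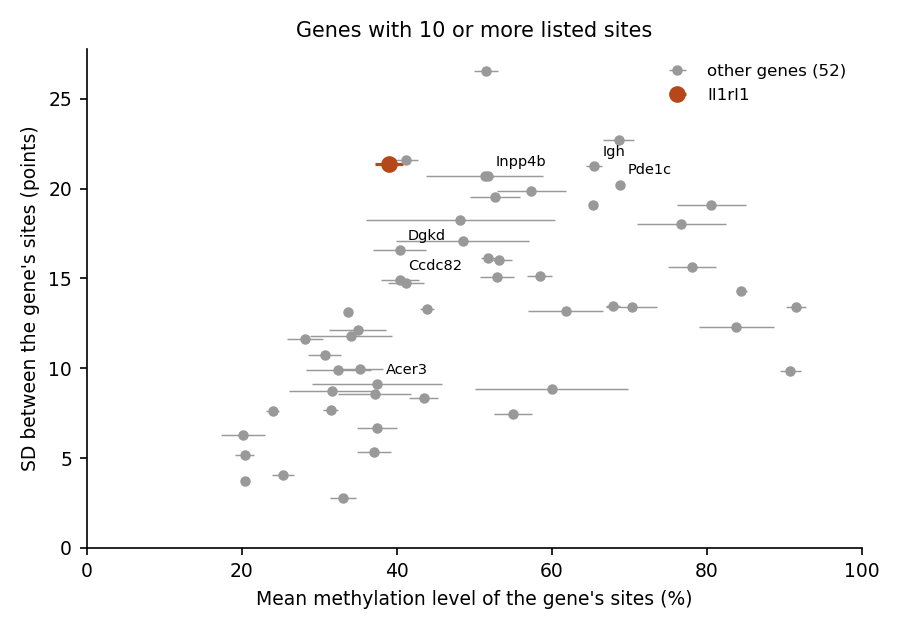
SD between the site means of a gene in points (vertical axis) against the gene's mean methylation level in percent (horizontal axis) for the 53 genes with 10 or more listed sites; horizontal bars are the SD of 2 biological replicates. Il1rl1, in colour, lies at 39.0% and 21.4 points, among the widest spreads.

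Besides Il1rl1 itself, few genes of IL-33 signalling had listed sites. Of 36 genes of IL-33 signalling, which comprise the ligand Il33, the co-receptor Il1rap, the adaptor Myd88, IRAK kinases, Traf6, NF-κB and MAP kinase genes, cytokine targets and mast cell regulators, 2 had listed sites. Besides Il1rl1 this was Mapk14, the p38α kinase, with 1 site at 28691536 on chromosome 17 that read 22.2%, 16.7%, 25% and 33.3% (mean 24.3% ± 6.87, SD, n = 2). In the IL-1 receptor family and its neighbours on chromosome 1, Il1rl1 was the only gene of 13 with a listed site; Il1r1, Il1rl2, Il18r1 and Il18rap had 0. Across the annotation, 96 of 21900 protein-coding genes (0.438%) had a listed site. That share also counts genes that mast cells may not express, so it is not a matched background for these lists. Il1rl1 was the gene chosen for this description, so its presence in a list is not a result.

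Markers of cell types can only be looked up among listed genes here, since the table holds no expression values. Of 12 mast cell marker symbols, 11 were found in the annotation. Besides Il1rl1, the gene chosen here, only the granule carboxypeptidase Cpa3 had listed sites. It had 1 site at 20236619 on chromosome 3 that read 40%, 30.4%, 18.2% and 20% (mean 27.2% ± 11.4, SD, n = 2). Of 4 basophil markers, Cd200r3, an activating receptor also found on mast cells, had 102 sites at 31.5% ± 0.916 (SD, n = 2). The 6 markers of type 2 innate lymphoid cells and T cells, which also carry ST2, had 0 listed sites. Read depth was not analysed, so the absence of a gene from the table and a low number of reads in it cannot be told apart, and the identity of the cells rests on the labels.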

How the data were processed

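Poly(A) RNA of Tet2-/- and wild-type mast cells was treated with DNase, mixed with unmethylated lambda RNA, converted with bisulfite and sequenced from stranded paired-end libraries, per the labels' protocols. The authors' deposited table gives a methylation rate per site, a fraction between 0 and 1, for the 4 Tet2-/- libraries, per the file headers; it was multiplied by 100 here. Builds mm10 and GRCm38 are named in the submitters' processing notes. Not given in the sources used here are the aligner, caller, coverage minimum, lambda conversion rate and rule of choice. Read numbers are not in the columns used, so depth is unknown and no counting interval is given.

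Column headings were read as biological, then technical replicate, an order the values cannot settle. Technical replicates were averaged before the mean and SD of 2 biological replicates were taken. Sites were assigned to RefSeq gene spans (GRCm38 patch 6), and 8492 sites had 0 repeated positions and 0 empty cells. Of the 12 mast cell markers, 11 were matched by symbol. Stretches join sites up to 50 bases apart. Joining and correlation were tested on simulated data. No test between groups was possible. The members, gene lists and settings were chosen with earlier results of these data known. Named are the 3 genes nearest in number of sites and the 3 nearest in level, listed genes with sites, stretches of 10 or more sites, and the highest, lowest and widest-ranging site; the narrowest-ranging site, the runs of 4 positions and the parts within stretches were picked with their values in view. Settings varied were a level minimum, removal of clustered sites, merged positions, other joining distances, medians, equal weights, exchange of replicate kinds and leaving out a replicate. Python 3.11.15, numpy 2.4.6, pandas 2.3.3 and matplotlib 3.10.9 were used.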

Additional observations from a re-analysis of the deposited data

Results flagged for a closer look

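The mean level of Il1rl1, its 11 stretches of 10 or more sites and the 6 genes nearest to it in number of sites or level were examined for a single library that stands apart, 18 values in all. In 0 of them did the gap to the nearest library exceed Dixon's critical value for groups of 4. The share came closest to the limit, at 0.748, in stretch 13. There technical replicate 1 of biological replicate 1 read 31.9% and the other libraries lay between 25.6% and 27.2%.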

How the results depend on the processing

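The mean level of 39.0% became 32.4% without sites that have a neighbour within 10 bases, 49.8% with only sites at 20% or more in every library, and 31.6% as a median over sites. It was 38.7% with each stretch weighing the same, and 37.7% to 40.3% with a biological replicate left out, a range that 2 replicates fix by construction. The 445 sites became 262 with at least 20% in every library, 26 without clustered sites, and 351 and 104 with positions within 1 and 10 bases merged. The 14 stretches became 48, 8 and 5 when sites up to 20, 100 and 200 bases apart were joined. The rank of 34 among 53 genes was 41 by medians and between 32 and 36 when a replicate was dropped. Dropping clustered sites left 48 of the 53 genes with a value; Il1rl1 was 34th of these, and 29th of the same 48 with all sites. Of the 11 stretch levels, 3 (stretches 9, 12 and 13) rose by more than their SD with the minimum of 20%, by 3.66, 6.34 and 8.28 points, as a minimum removes low sites by construction. Stretches 1 and 3 rose by 5.72 and 7.32 points, within their wider SDs of 8.49 and 7.87. Stretches 5 and 8 did not change. With technical and biological replicates exchanged, the means stayed as they were by construction; the SD of the gene was 0.271 points. It was smaller for 9 of the 11 stretches, such as 3.76 in stretch 6 and 0.0646 in stretch 11, and larger for 2, with 1.08 in stretch 9 and 9.53 in stretch 2. For the last 10 sites of stretch 13 it was 15.7 points in place of 2.60. No paired analysis was possible because wild-type libraries have no levels in the table. Limits set by depth cannot be given without read numbers.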

Other observations

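Neighbouring Il1rl1 sites often had the very same level in a library, to within 0.000001 of a percentage point. Among 341 pairs of consecutive sites up to 10 bases apart, this held for 30.2%, 31.1%, 23.2% and 24.9% of pairs in the 4 libraries, against 39.7%, 41.8%, 34.9% and 39.9% among the other listed sites. All 4 libraries repeated their levels at once in 14 of the 444 steps from a site to the next. The share of Il1rl1 pairs was the lower in all 4 libraries; this was noticed in the data and was not tested.

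Among the Il1rl1 sites, levels of 100% in a library were more frequent in some libraries than in others. In Il1rl1 they occurred at 10, 3, 21 and 13 sites, and 0 of the 445 sites read 100% in every library, whereas the table held 71 such sites among 8492. Within Il1rl1, biological replicate 2, technical replicate 1, had the most sites at 100% and also the lowest mean level of the 4 libraries, at 36.0%. It had 113 sites under 20%, against 57, 82 and 76 in the others. Counts at 100% or under 20% by library over all listed sites are not given, so these counts only describe Il1rl1.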
